A study of Saccharomyces cerevisiae with 12 samples.

Results

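The 56 genes described here encode the proteins of the small subunit of the cytosolic ribosome of budding yeast, RPS0A to RPS31. They were found in the count table by their systematic names, such as YCR031C for RPS14A, YJL191W for RPS14B, YPL081W for RPS9A, YBR189W for RPS9B and YPL090C for RPS6A, and they make up 56 of its 7150 gene rows. Of these, 48 form 24 pairs of A and B paralogs and 8 are single genes, among them RPS2, RPS3, RPS12, RPS13, RPS15, RPS20 and RPS31. RNA was sequenced from Saccharomyces cerevisiae in log phase in YPD with 2% glucose at 30 °C, in 12 libraries of 4 genotypes. The wild type (3 libraries) was BY4741, Mat a his3del1 leu2del0 met15del0 ura3del0, and the cyc8 mutant (3 libraries) was YAFTCD4, the same strain with cyc8::KAN. The snf2 mutant (2 libraries) was FY2083, a MATa strain with snf2::LEU2 and the alleles met15del0, lys2del0, trp1-del63, ura3del0 and his3del200. The cyc8 snf2 double mutant (4 libraries) was YDB1.7, which carries those FY2083 alleles together with cyc8::URA3. All 12 libraries share met15del0, ura3del0 and a deletion allele of HIS3, and the double mutant carries URA3 again as its cyc8 marker. The snf2 label always comes with FY2083 alleles, so the snf2 label and the strain cannot be told apart; the comparisons of cyc8 with wild type and of the double mutant with snf2 stay within 1 strain. Each genotype is 1 named strain, and the labels do not say whether its libraries are separate cultures; p-values therefore speak of the spread among libraries, which may be technical.

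Each small subunit holds 1 copy of each protein around the ribosomal RNA of the subunit, and binds the mRNA and the initiator tRNA before the large subunit joins. In yeast the ribosomal protein genes are switched on together by Rap1 with Fhl1, Ifh1, Sfp1 and, at many of them, Hmo1, and they follow growth rate and nutrient supply. Snf2 is the motor subunit of SWI/SNF, a remodeller that slides and evicts nucleosomes, and Cyc8 with Tup1 forms a corepressor that is brought to promoters by DNA-binding proteins.

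Of the 56 rows, 55 entered the tests and RPS26A had 0 counts in every library. The RPS26A model lies wholly inside a longer model on the same strand, and all 115 rows of the table with that position had 0 counts. In a further 4 rows, among them RPS22B, RPS26B and RPS29A, the interval of the table ends before the start codon, so their counts come from upstream of the protein-coding part and are not levels of these mRNAs. These 4 rows stay in the counts out of 55, and results are also given for the 51 members whose model holds the whole coding sequence; 20 pairs have both copies readable in this way. The models span introns, which 36 of the 56 genes have within the coding sequence, so spliced and unspliced RNA were counted together. Coding identity within pairs ran from 84.3% in RPS27 to 99.2% in RPS6, and reads from stretches shared by both copies may have been left out or assigned to either. The share of 50-base words of the coding sequence that also occur elsewhere in the genome was 72.7% in RPS6, 47.7% in RPS4 and 38.5% in RPS24, so the A and B values of those 3 pairs are uncertain.

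The sequences shown are those of the 2 pairs whose A to B balance moved most, RPS14 and RPS9, and of the most alike pair, RPS6. They were read from the R64 reference, 5′ to 3′ on the coding strand. The first set runs from the start codon into the intron, with the first exon in capitals, and shows that all 4 genes are interrupted within their first codons; the positions are chrIII:178131-178220 for RPS14A, chrX:73787-73876 for RPS14B, chrXVI:404950-405039 for RPS9A and chrII:604508-604597 for RPS9B.
RPS14A: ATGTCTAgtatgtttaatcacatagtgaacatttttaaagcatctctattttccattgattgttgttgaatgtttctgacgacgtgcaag
RPS14B: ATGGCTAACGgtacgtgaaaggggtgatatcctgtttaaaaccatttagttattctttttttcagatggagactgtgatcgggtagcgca
RPS9A: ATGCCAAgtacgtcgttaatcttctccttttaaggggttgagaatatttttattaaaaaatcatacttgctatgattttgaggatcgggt
RPS9B: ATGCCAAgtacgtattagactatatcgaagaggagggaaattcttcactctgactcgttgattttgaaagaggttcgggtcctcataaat
The first exon is 7 bases long in RPS14A, RPS9A and RPS9B and 10 bases in RPS14B, and each intron opens with gt.

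The second set shows 120 coding bases of each RPS6 and RPS14 copy, with the positions at which A and B differ in capitals. Only at these bases can reads from within this coding stretch be told apart. The stretch is coding bases 22 to 141 of RPS6A, RPS6B and RPS14A and 25 to 144 of RPS14B.
RPS6A: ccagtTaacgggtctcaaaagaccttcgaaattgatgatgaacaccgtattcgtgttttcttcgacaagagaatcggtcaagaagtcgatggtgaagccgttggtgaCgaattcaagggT
RPS6B: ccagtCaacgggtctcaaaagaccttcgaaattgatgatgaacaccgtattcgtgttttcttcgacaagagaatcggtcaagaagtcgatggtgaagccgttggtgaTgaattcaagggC
RPS14A: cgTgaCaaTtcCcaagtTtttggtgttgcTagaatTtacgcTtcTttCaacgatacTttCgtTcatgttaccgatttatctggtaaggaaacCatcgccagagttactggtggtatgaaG
RPS14B: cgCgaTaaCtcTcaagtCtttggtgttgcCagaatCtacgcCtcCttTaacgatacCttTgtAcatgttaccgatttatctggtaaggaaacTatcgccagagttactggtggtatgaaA
RPS6A and RPS6B differ at 3 of these bases and at 6 of all 711 coding bases, whereas RPS14A and RPS14B differ at 15 of the 120 bases shown.

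The third set shows the stretch around a Rap1-type word upstream of the same 2 divergent pairs, with the word in capitals. It is shown because the copies of each pair move apart while all 4 genes have such a word before the start codon. Searched on both strands within 500 bases before the start codon, called the promoter here, were 2 words of 11 bases: ACACCC, any 3 bases, then CA; and ACATC, any 2 bases, T, any base, then CA. The words differ at the fourth base, so both cannot match at the same position; they were chosen with these promoters in view. The stretches are chrIII:178419-178538 for RPS14A, chrX:73528-73647 for RPS14B, chrXVI:404652-404771 for RPS9A and chrII:604292-604321 for RPS9B, the last cut to 30 bases because it lies inside the gene model.
RPS14A: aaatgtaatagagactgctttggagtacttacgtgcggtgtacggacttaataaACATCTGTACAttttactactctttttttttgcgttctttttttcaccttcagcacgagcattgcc
RPS14B: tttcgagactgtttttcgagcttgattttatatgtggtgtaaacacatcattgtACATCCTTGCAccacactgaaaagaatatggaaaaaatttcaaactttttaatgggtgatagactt
RPS9A: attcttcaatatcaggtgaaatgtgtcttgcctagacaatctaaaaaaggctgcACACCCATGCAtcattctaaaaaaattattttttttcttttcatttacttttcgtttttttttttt
RPS9B: tacatttacACATCTGTACAtttttcatat
The word ends 253 bases before the start codon in RPS14A, 194 in RPS14B, 233 in RPS9A and 196 in RPS9B. The RPS9B model begins 871 bases before its start codon, so all 500 bases searched there lie inside the model. Such a word was found in 25 of the 56 small subunit promoters (44.6%), in 31 of 81 large subunit promoters and in 228 of 6000 promoters of the genome (3.8%). The word that opens with ACACCC was in 1.7% and the one that opens with ACATC in 2.23% of the 6000 promoters. A match is a description of the letters, not a binding site.

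As whole-table facts, the 12 libraries held from 16378131 to 27230568 counts. Levels are given as CPM, counts per 1000000 counts of a library whose size was scaled by TMM, edgeR's trimmed mean of M-values. A row at 0 counts can stand for up to 0.105 to 0.192 CPM by library (3 counts), which covers counting error only. CYC8 stood at 77.1 ± 6.5 CPM (SD, n = 3) in wild type, 59.3 ± 4.7 (n = 3) in the libraries labelled cyc8 and 53.2 ± 2.6 (n = 4) in those labelled as double mutants. SNF2 stood at 80.1 ± 8.2 CPM (n = 3) in wild type, 66.0 ± 0.9 (n = 2) in snf2 and 109 ± 4.4 (n = 4) in the double mutant, so neither targeted transcript was lost and the genotypes below are those of the labels. The LEU2 marker was at 483 ± 21.7 CPM in snf2 and 269 ± 69.7 in the double mutant, and URA3 at 18.3 ± 1.2 in the double mutant. The third cyc8 library stood apart, with a scaling factor of 1.00 against 0.853 and 0.855 in the others. The counts of members, and most named members and pair shifts that use cyc8 libraries, are also given without it. Shares of all genes called are given only for the main fits with all libraries. Counts from fits that leave out a library therefore have no background beside them.

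In wild type the 51 readable members spanned a wide range of levels per length, from 133 to 5613 CPM per kb of spliced gene model with a median of 1760. By this measure RPS22A, a protein of the subunit body, was at the top with 5613 ± 353 CPM per kb (SD, n = 3). RPS9A, the minor gene for a protein of the body that affects decoding accuracy, was at the bottom with 133 ± 17.4. Per kb of coding sequence RPS27B, RPS30A and RPS31 stood above RPS22A, at 14270, 12220 and 12120 against 11010 CPM. The single-copy genes other than RPS3 lay above that median. RPS31, which encodes a fusion of ubiquitin and a ribosomal protein, had 3830 ± 111 CPM per kb, RPS20 of the subunit head had 3763 ± 132 and RPS2, near the mRNA entry channel, had 3381 ± 153. RPS3, its neighbour at the entry channel, had the lowest level of the single-copy genes at 1273 ± 36.0, per kb of a model that is long for its coding sequence.

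Copies of 1 protein were rarely equal. In wild type the A copy had the higher level in 12 and the B copy in 7 of the 20 readable pairs, whether counts were divided by the spliced model or by the coding length, and RPS16 changed direction between those lengths. RPS9B exceeded RPS9A 8.89-fold per kb of model and 15.2-fold per coding length. RPS27B exceeded RPS27A 5.15-fold and 6.97-fold, RPS25A exceeded RPS25B 4.51-fold and 4.70-fold, and RPS14A exceeded RPS14B 3.68-fold and 6.36-fold. At the other end RPS10A and RPS10B, per kb of model, differed 1.04-fold. By counts alone, the ratio that the later comparisons use, the pairs nearest to balance were RPS18, with a mean log2 A to B ratio of 0.15 ± 0.06 (SD, n = 3), RPS21 with 0.17 ± 0.08 and RPS6 with -0.27 ± 0.10. RPS18 stayed between 0.02 and 0.30 in all 12 libraries. RPS21 had 0.26, 0.11 and 0.15 in wild type, -0.02, 0.16 and -0.32 in cyc8, 0.02 and 0.00 in snf2 and -0.03, 0.27, 0.18 and 0.11 in the double mutant. RPS27, at the B end, had -2.73, -2.75 and -2.91 in wild type, -2.98, -2.90 and -2.62 in cyc8, -2.87 and -2.78 in snf2 and -2.96, -2.83, -3.08 and -2.93 in the double mutant. In these 3 pairs the genotypes overlapped, apart from the snf2 libraries of RPS21, which lay below wild type.

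**Figure D1:**
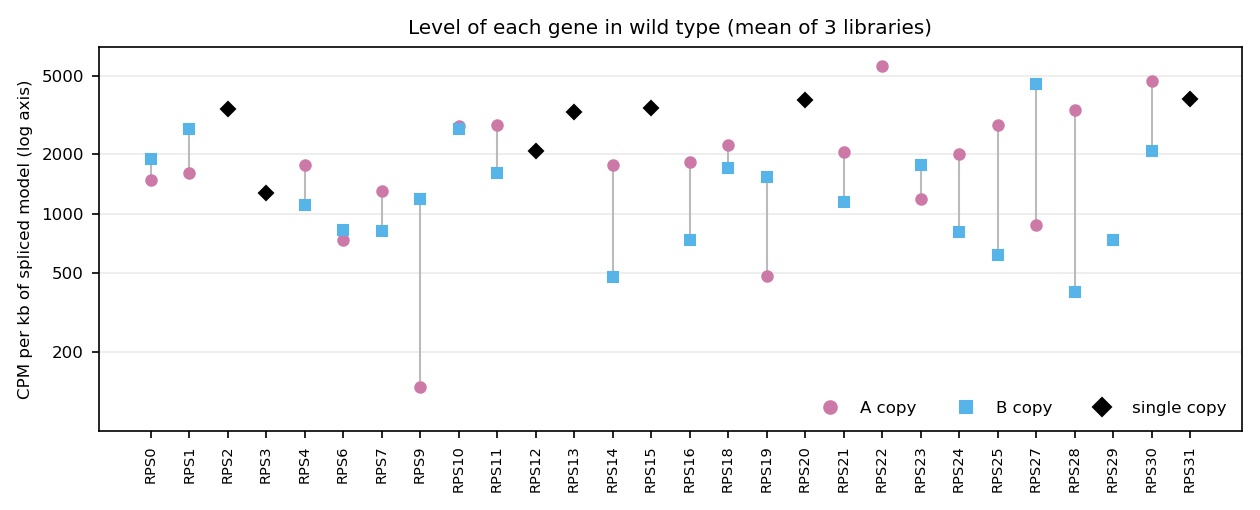
Level of the readable small subunit genes described here, in wild type, as CPM per kb of spliced model on a log axis (mean of 3 libraries), by protein on the x axis; circles are A copies, squares B copies, diamonds single genes, and a line joins the copies of a pair. The widest gaps per kb of model are those of RPS9, where B is 8.89-fold above A, and RPS28, where A is 8.39-fold above B. Per coding length the gap of RPS9 was 15.2-fold and that of RPS28 only 2.81-fold, less than the 6.97-fold of RPS27.

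As a share of all counts, which needs no scaling between libraries, the 56 rows took 10.3 ± 0.0677% (SD, n = 3) in wild type, 9.16 ± 0.469% (n = 3) in cyc8, 8.30 ± 0.0614% (n = 2) in snf2 and 10.9 ± 0.60% (n = 4) in the double mutant. The snf2 libraries, at 8.26% and 8.35%, were the lowest of all. The double mutant libraries, at 10.42% to 11.71%, lay above the wild-type libraries, at 10.28% to 10.41%, by a narrow margin at the lower end. In bulk RNA, fewer transcripts per cell and more RNA from other genes cannot be told apart. The 81 large subunit rows were also lowest in snf2, at 10.8 ± 0.0129% against 13.0 ± 0.157% in wild type and 11.4 ± 0.43% in cyc8. In the double mutant they took 13.4 ± 0.668%, but its libraries, at 12.87% to 14.31%, overlapped those of wild type, at 12.89% to 13.16%.

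**Figure D2:**
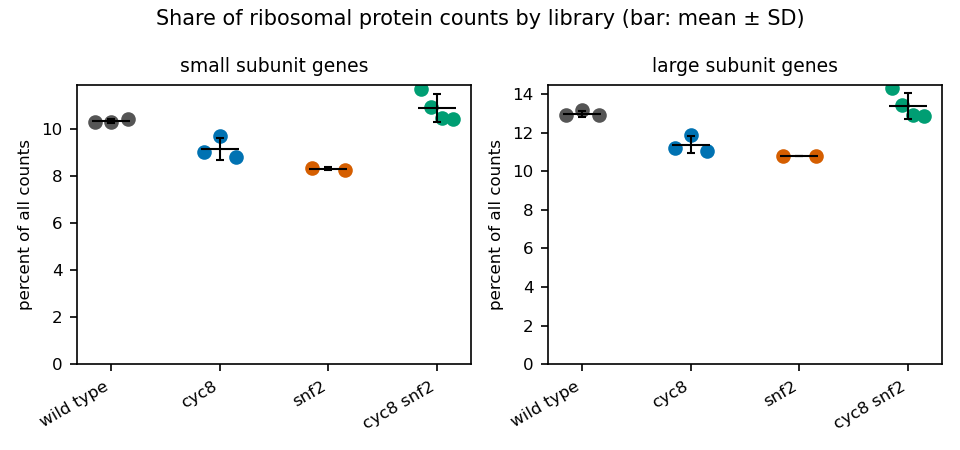
Percent of all counts taken by the 56 small subunit rows (left) and the 81 large subunit rows (right) in each library; points are libraries, bars the mean ± SD of 3 wild-type, 3 cyc8, 2 snf2 and 4 double mutant libraries. The 2 snf2 libraries sit lowest, at 8.26% and 8.35% for the small subunit.

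The snf2 libraries had lower levels of nearly all small subunit genes than wild type. Of the 55 tested, 46 fell and 1 rose at an adjusted p below 0.05 in edgeR's quasi-likelihood test, against 18.7% lower and 17.3% higher among all 6171 genes tested. The median log2 fold change of the members was -0.48, against 0.02 for all genes, and none passed a 2-fold limit, which 4.25% of all genes passed upward and 5.4% downward. Of the 51 readable members 45 fell, and in 15 of 20 pairs both copies did. With 1 of the 2 snf2 libraries left out, 30 or 26 members were called, in a fit that assumes the lone library to vary like the other groups; the median stayed between -0.50 and -0.47. With library totals and no scaling factor, under which the median of all genes moves by 0.21, 35 members fell, 3 rose and the median of the members was -0.27.

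The largest falls were spread over the body, head and platform of the subunit. RPS16B, one of the genes for a head protein whose tail reaches the decoding centre, had 1997, 2002 and 1916 CPM in wild type and 1059 CPM in both snf2 libraries, a log2 fold change of -0.90 (SE 0.116, edgeR adjusted p = 5.31e-05). RPS22A had 4481, 4013 and 4489 CPM in wild type and 2469 and 2402 in snf2, a log2 fold change of -0.83 (SE 0.160, edgeR adjusted p = 0.00128). RPS14A, the major gene for a platform protein, had 2503, 2302 and 2408 CPM in wild type and 1430 and 1408 in snf2, a log2 fold change of -0.76 (SE 0.115, edgeR adjusted p = 0.000195). In all 3 genes the groups did not overlap and the snf2 libraries lay near each other. RPS30B, which encodes a protein of the decoding side, had 1556, 1208 and 1438 CPM in wild type and 860 and 820 in snf2, a log2 fold change of -0.74 (SE 0.217, edgeR adjusted p = 0.0197). Its wild-type spread was wide, and its adjusted p was 0.0614 without the first wild-type library, and 0.0938 or 0.123 without either snf2 library.

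Of the 8 single-copy genes 7 fell in snf2, with a median log2 fold change of -0.59. RPS2 had 3981, 3681 and 3990 CPM in wild type, 4268, 4390 and 3385 in cyc8, 2492 and 2393 in snf2 and 4590, 4078, 4085 and 3453 in the double mutant. Its log2 fold change in snf2 was -0.67 (SE 0.131, edgeR adjusted p = 0.00139), and its snf2 libraries lay below all others. RPS15, a head protein near the decoding site, had 2962, 2972 and 2755 CPM in wild type, 3499, 3400 and 3014 in cyc8, 2103 and 2032 in snf2 and 3898, 3436, 3125 and 3082 in the double mutant. RPS20 had 2477, 2590 and 2418 CPM in wild type, 2380, 2648 and 2274 in cyc8, 1861 and 1765 in snf2 and 3246, 2668, 2798 and 2614 in the double mutant. RPS15 and RPS20 fell less, with log2 fold changes of -0.49 and -0.46 (edgeR adjusted p = 0.00396 and 0.00411), and their snf2 libraries were again the lowest. RPS12, a protein of the beak, was the exception, with 3244, 3535 and 3493 CPM in wild type, 2813 and 2685 in snf2 and a log2 fold change of -0.32 (edgeR adjusted p = 0.0896). Its groups did not overlap, yet the difference did not pass the test with all libraries in the fit. Without the third cyc8 library it passed, at -0.32 (edgeR adjusted p = 0.00473).

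The members outside this fall were few. Among the readable genes RPS9A, RPS23A, RPS25A, RPS28A and RPS12 did not pass the test with all libraries. Their log2 fold changes were 0.16, -0.31, -0.23, -0.34 and -0.32. The rows RPS22B and RPS26B, whose intervals miss the coding sequence, did not pass either. RPS14B was the 1 member that rose.

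**Figure D3:**
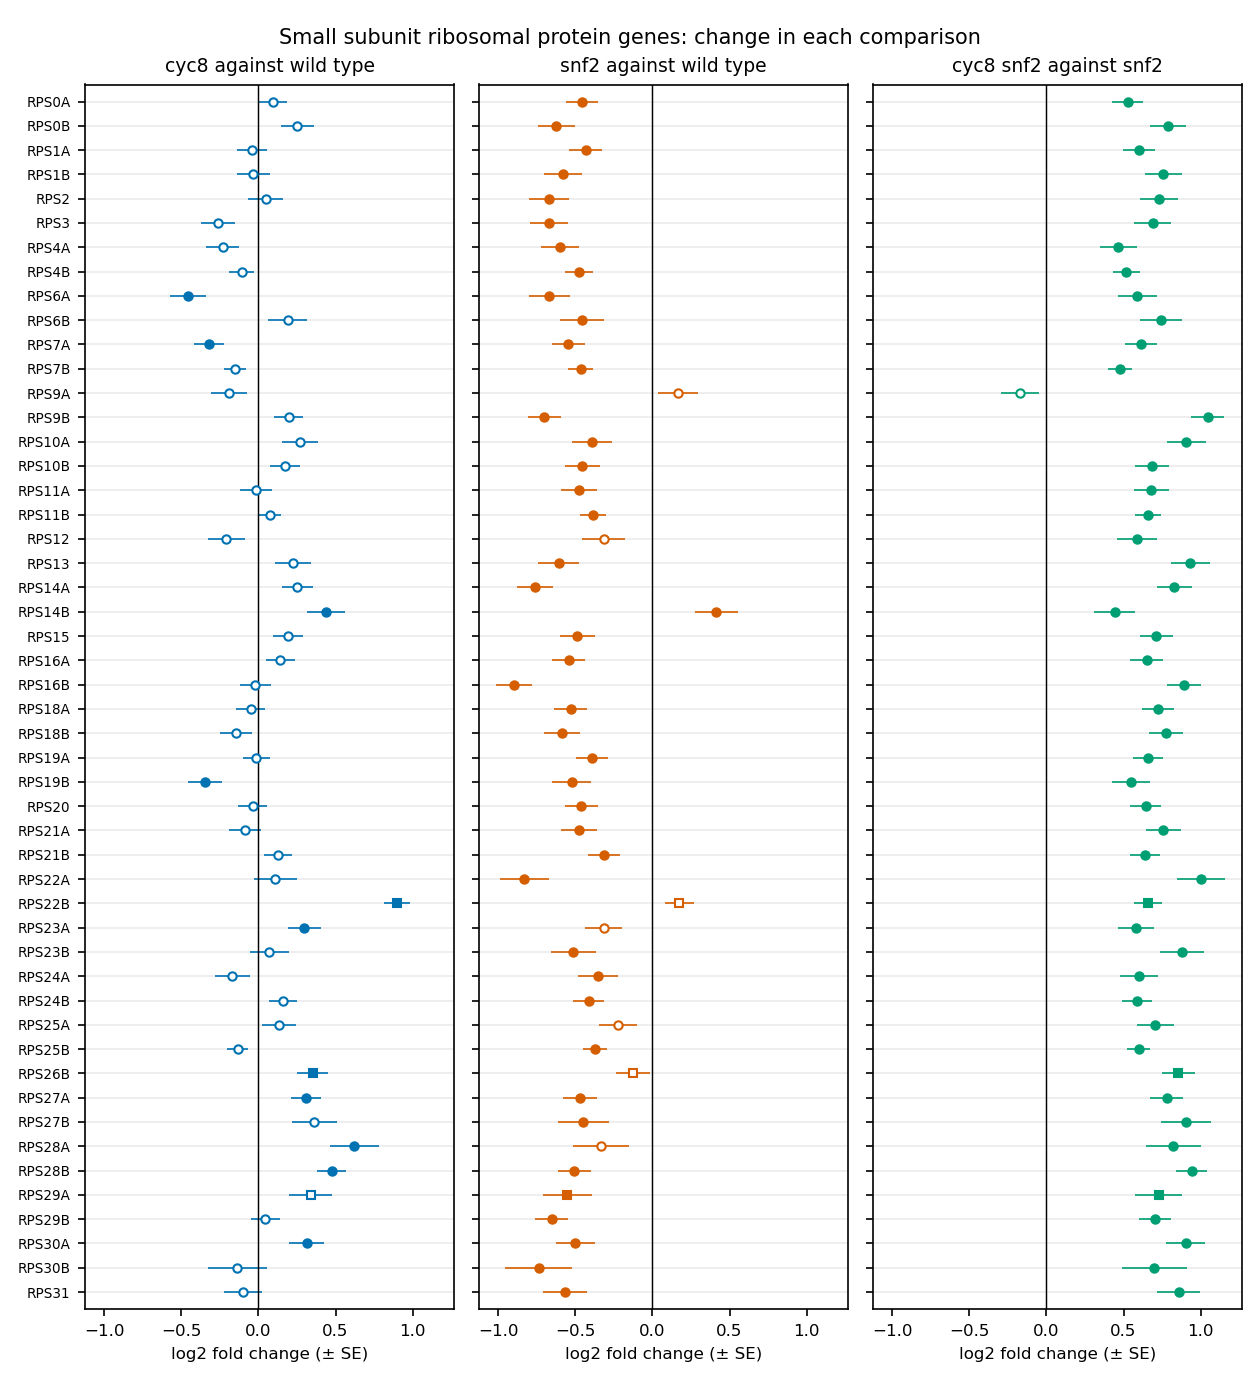
Log2 fold change (± SE, from edgeR) of the small subunit genes described here for cyc8 against wild type, snf2 against wild type and cyc8 snf2 against snf2; filled symbols have an adjusted p below 0.05, and squares are rows whose interval misses the coding sequence. In the middle panel nearly all symbols are filled below 0 and RPS14B is filled above it, and in the right panel all but RPS9A are filled above 0.

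RPS14B, the minor gene of the RPS14 pair, is known to be held down by its own protein, which binds the RPS14B pre-mRNA. It had 370, 382 and 389 CPM in wild type, 491, 587 and 468 in cyc8, 512 and 502 in snf2 and 855, 692, 629 and 580 in the double mutant. Every mutant library was above every wild-type library. The log2 fold change against wild type was 0.44 (SE 0.124, edgeR adjusted p = 0.0109) in cyc8, 0.41 (SE 0.138, edgeR adjusted p = 0.0313) in snf2 and 0.86 (SE 0.119, edgeR adjusted p = 4.67e-05) in the double mutant. The snf2 call is weak: the adjusted p was 0.0844 and 0.0632 without the first or second wild-type library and 0.136 and 0.113 without either snf2 library, while the value stayed between 0.39 and 0.43 in those fits. The cyc8 call did not hold at upper-quartile scaling (log2 fold change 0.32, edgeR adjusted p = 0.0545), with no scaling factor (0.22, adjusted p = 0.0845) or without the second cyc8 library (0.33, adjusted p = 0.0571), and without the third cyc8 library the value was 0.55 (adjusted p = 0.00621). The end of the RPS14B model overlaps that of RPS22A, which runs on the opposite strand.

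The balance of RPS14A and RPS14B, which does not depend on scaling between libraries, moved with the snf2 label. The log2 A to B ratio was 2.76, 2.59 and 2.63 in wild type, 1.48 and 1.49 in snf2, 2.68, 2.31 and 2.44 in cyc8 and 1.77, 1.76, 1.97 and 2.03 in the double mutant. All 6 libraries with the snf2 label were below the 6 without it. The change was -1.17 without the cyc8 label and -0.59 with it, a mean of -0.88 with p = 0.002857 in an exact two-sided permutation test over libraries within strata, the smallest p that its 350 arrangements allow. Summed over both copies, RPS14 counts fell by 0.54 on the log2 scale in snf2 and rose by 0.28 in cyc8 (edgeR adjusted p = 0.0382), or by 0.41 without the third cyc8 library.

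RPS9 changed balance in another way. RPS9B had 2618, 2578 and 2642 CPM in wild type, 3071, 3155 and 2757 in cyc8, 1624 and 1591 in snf2 and 3806, 3399, 3016 and 3045 in the double mutant. RPS9A had 152, 171 and 198 CPM in wild type, 157, 155 and 144 in cyc8, 193 and 197 in snf2 and 177, 156, 150 and 207 in the double mutant. RPS9B thus fell in snf2 by 0.70 on the log2 scale (edgeR adjusted p = 0.000228), whereas the RPS9A values of each mutant overlapped those of wild type and no comparison of RPS9A with wild type passed the test. The log2 A to B ratio rose from -3.92 ± 0.18 (SD, n = 3) in wild type to -3.04 ± 0.04 (n = 2) in snf2 and stood at -4.30 ± 0.05 (n = 3) in cyc8 and -4.27 ± 0.27 (n = 4) in the double mutant. With the cyc8 label the ratio changed by -0.38 in BY4741 and by -1.22 in FY2083, with p = 0.003333 in the exact permutation test, the smallest that 300 arrangements allow. The change with the snf2 label was 0.87 without the cyc8 label and 0.03 with it (exact p = 0.0686). Both genes are known for regulation through their introns, shown at the start.

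**Figure D4:**
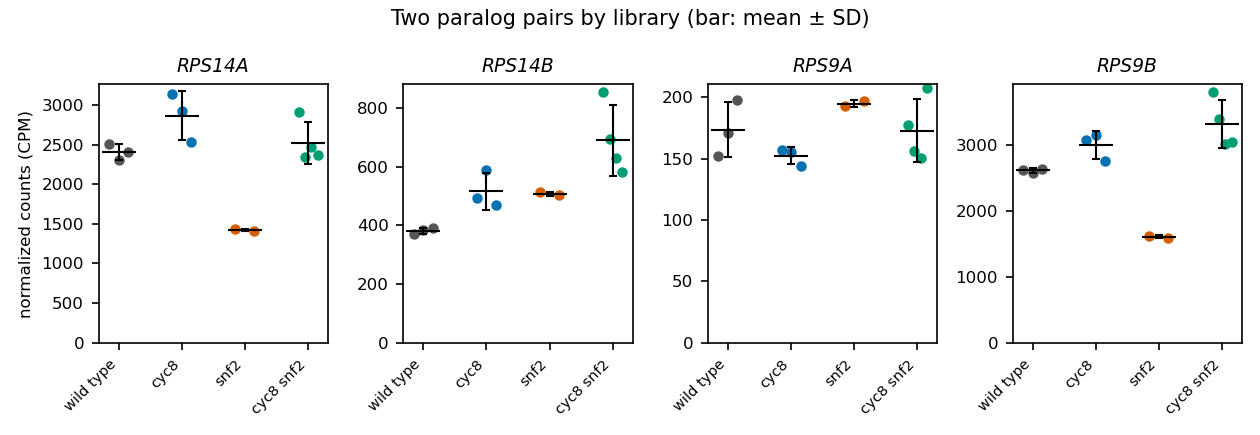
Normalized counts (CPM, linear axes from 0) of RPS14A, RPS14B, RPS9A and RPS9B in each library; points are libraries and bars the mean ± SD (n = 3, 3, 2 and 4 for wild type, cyc8, snf2 and cyc8 snf2). RPS14A and RPS9B are lowest in the 2 snf2 libraries, while RPS14B is above wild type in every mutant library.

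Within FY2083, the double mutant had higher levels of nearly every small subunit gene than snf2. Of 55 members 53 rose and none fell, against 24.3% and 23.8% of all genes, with a median log2 fold change of 0.69 against -0.03 for all genes. Of the 51 readable members 50 rose, and both copies did in 19 of 20 pairs. RPS9B, at 1.04, and RPS22A, at 1.00, were the 2 members past a 2-fold limit, which 9.12% of all genes passed upward and 3.08% downward. This comparison uses the same 2 snf2 libraries as the comparison of snf2 with wild type, so a deviation of those libraries would enter both with opposite signs. With library totals and no scaling factor, under which the median of all genes moves by -0.35, 44 members rose, 1 fell and the median of the members was 0.34.

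RPS9B rose by 1.04 on the log2 scale (SE 0.105, edgeR adjusted p = 3.63e-06), from 1624 and 1591 CPM to 3016 at the least. RPS22A went from 2469 and 2402 CPM in snf2 to 5685, 5007, 4525 and 4313 in the double mutant, a log2 fold change of 1.00 (SE 0.155, edgeR adjusted p = 0.000157). RPS28B, whose mRNA decay is controlled by its own protein, had 487, 541 and 620 CPM in wild type, 736, 780 and 773 in cyc8, 373 and 401 in snf2 and 778, 751, 668 and 776 in the double mutant. Its log2 fold change against snf2 was 0.94 (SE 0.101, edgeR adjusted p = 6.61e-06). RPS13, a protein of the body near the subunit interface, had 2491, 2417 and 2509 CPM in wild type, 3059, 3194 and 2411 in cyc8, 1480 and 1766 in snf2 and 3414, 2868, 3287 and 2821 in the double mutant, a log2 fold change of 0.93 (SE 0.128, edgeR adjusted p = 5.53e-05). In these 4 genes every double mutant library was above both snf2 libraries. RPS9A, at -0.17 (edgeR adjusted p = 0.261), did not pass.

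In BY4741 the cyc8 label moved few members, and not all one way. Against wild type 9 of 55 rose and 4 fell, fewer than the 22.9% higher and 23.9% lower among all genes, and the median log2 fold change was 0.05. No member passed a 2-fold limit, against 10.4% of all genes upward and 3.48% downward. The direction of the group depends on the scaling: upper-quartile scaling gave 3 higher and 13 lower, and library totals with no factor, under which the median of all genes moves by -0.21, gave 3 higher and 25 lower with a median of -0.17. Without the third cyc8 library 22 rose and 2 fell, with a median of 0.16. Of the 13 members called with all libraries 11 were called there too. No share of all genes called is given for that fit, so these counts cannot be set against 22.9% and 23.9%. With all libraries none of the 8 single-copy genes was called in edgeR's test, and 1 had an unadjusted p below 0.05. Without the third cyc8 library RPS13 and RPS15 were called higher, at 0.39 and 0.30 (edgeR adjusted p = 0.00777 and 0.0205).

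RPS28A and RPS28B, both copies of a small head protein, were the 1 readable pair of which both rose. RPS28A had 1634, 1368 and 1621 CPM in wild type and 2759, 2626 and 1733 in cyc8, a log2 fold change of 0.62 (SE 0.161, edgeR adjusted p = 0.00695), and RPS28B, with its values above, rose by 0.47 (SE 0.0917, edgeR adjusted p = 0.000844). In RPS28A the third cyc8 library was far below the other two, and without it the log2 fold changes were 0.85 for RPS28A and 0.51 for RPS28B (edgeR adjusted p = 0.000137 and 0.00186). The other readable members called higher were RPS14B, RPS23A at 0.30, RPS27A at 0.31 and RPS30A at 0.31, which stood at 0.39, 0.44 and 0.41 without the third cyc8 library and were called there too. RPS22B, at 0.90, and RPS26B were also called higher, but on counts from before their start codons.

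The 4 members called lower in cyc8 each have a partner that was not called. RPS6A, one of the genes for the protein that is phosphorylated downstream of TORC1, had 745, 833 and 768 CPM in wild type and 523, 694 and 495 in cyc8, a log2 fold change of -0.45 (SE 0.116, edgeR adjusted p = 0.00559). RPS6B had 961, 933 and 937 CPM in wild type and 1007, 1289 and 935 in cyc8, a log2 fold change of 0.19 that did not pass the test. RPS6A was lower in all 3 cyc8 libraries than in any wild-type library. Its call held in all 20 alternatives run, at -0.31 without the third cyc8 library (edgeR adjusted p = 0.042). Those alternatives do not address how reads shared by RPS6A and RPS6B were assigned, so the split between the copies stays uncertain. Summed over both copies, RPS6 changed by -0.06 on the log2 scale (edgeR adjusted p = 0.688). RPS19B, at -0.35 (edgeR adjusted p = 0.0212), had 1296, 1374 and 1333 CPM in wild type and 1027, 1267 and 855 in cyc8. RPS7A, at -0.32 (edgeR adjusted p = 0.0141), had 2161, 2460 and 2184 CPM in wild type and 1815, 2027 and 1609 in cyc8. Its partner RPS7B was also lower without overlap, at 704, 774 and 733 CPM in wild type and 658, 681 and 648 in cyc8. Without the third cyc8 library the log2 fold changes shrank to -0.17 for RPS19B and -0.19 for RPS7A, and neither call held (edgeR adjusted p = 0.125 and 0.0805). Neither held with only the compared libraries in the fit, at adjusted p = 0.121 for RPS19B and 0.0868 for RPS7A, or without the second wild-type library, at 0.0593 and 0.0683. The RPS19B call was also lost without the first cyc8 library (0.061) or either snf2 library (0.0578 and 0.0577).

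The change with the cyc8 label differed between the strain pairs. In a test of that difference, taken as double mutant minus snf2 less cyc8 minus wild type, 47 of 55 members were higher and none lower, against 13.7% and 12.7% of all genes, with a median log2 difference of 0.66 against -0.01 for all genes. A 2-fold limit was passed by 1 member, RPS6A, against 4.2% of all genes upward and 4.7% downward. Under the 3 other scalings 44 to 46 members were called, with a median of 0.52 with no factor, but with either snf2 library left out 30 members were called. The largest was RPS6A at 1.04 (SE 0.170, edgeR adjusted p = 0.000632). RPS6A fell with the cyc8 label in BY4741 and rose from 485 and 500 CPM in snf2 to 786, 800, 696 and 678 in FY2083. Its split from RPS6B is uncertain, and summed over both copies the RPS6 difference was 0.75 (edgeR adjusted p = 0.00698). RPS31 had 5388, 5602 and 5703 CPM in wild type, 5064, 6302 and 4212 in cyc8, 3755 and 3771 in snf2 and 7560, 7040, 6496 and 6154 in the double mutant, a difference of 0.96 (SE 0.186, edgeR adjusted p = 0.00206). RPS3 had 2542, 2646 and 2506 CPM in wild type, 2034, 2560 and 1823 in cyc8, 1611 and 1609 in snf2 and 2815, 2628, 2502 and 2433 in the double mutant, a difference of 0.95 (SE 0.160, edgeR adjusted p = 0.000793). In RPS31 the wild-type and cyc8 libraries overlapped, while the snf2 and double mutant libraries lay far apart. Without the third cyc8 library 41 members were called, all higher, with a median of 0.56, and the differences were 0.92 for RPS6A, 0.80 for RPS31 and 0.82 for RPS3. The readable members that did not pass with all libraries were RPS9A, RPS14B, RPS23A, RPS27B and RPS28A.

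Against wild type the double mutant was level or higher. Of 55 members 19 rose and none fell, against 25.3% and 25.6% of all genes, with a median log2 fold change of 0.20. None passed a 2-fold limit, against 9.71% of all genes upward and 3.97% downward. RPS14B led, followed by the upstream rows RPS22B, at 0.83, and RPS26B, at 0.73. RPS10A, for a protein of the beak side of the head, had 2611, 2310 and 2628 CPM in wild type and 4112, 3661, 3269 and 3339 in the double mutant, a log2 fold change of 0.51 (SE 0.110, edgeR adjusted p = 0.00156). The count was 12 at upper-quartile scaling or without the second wild-type library and 31 without the third cyc8 library. With library totals and no scaling factor, under which the median of all genes moves by -0.14, 11 members rose, 2 fell and the median of the members was 0.06.

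Against cyc8 the double mutant had 15 members higher and none lower, against 8.62% and 10.4% of all genes, a share of the members above that of all genes, with a median log2 fold change of 0.17. None passed a 2-fold limit, against 0.924% of all genes upward and 3.01% downward. The count of members was 5 without the third cyc8 library, 4 of them higher, 7 without the first cyc8 library or the second double mutant library, 8 without either snf2 library and 8 with only the compared libraries in the fit. RPS12 had 3172, 3440 and 2287 CPM in cyc8 and 4128, 4339, 4110 and 3936 in the double mutant, a log2 fold change of 0.48 (SE 0.115, edgeR adjusted p = 0.0112), which was 0.29 (adjusted p = 0.0138) without the third cyc8 library. RPS24A had 1247, 1524 and 1005 CPM in cyc8 and 1659, 1746, 1665 and 1641 in the double mutant, at 0.41 (SE 0.108, edgeR adjusted p = 0.0173). Without the first cyc8 library it stood at 0.41 (edgeR adjusted p = 0.0538), and without the third cyc8 library at 0.25 (adjusted p = 0.0562). In RPS12 and RPS24A the groups did not overlap. RPS14B was also higher, by 0.42 (edgeR adjusted p = 0.0241), a call that did not hold without the first or the third cyc8 library (0.0872 and 0.12) or the second double mutant library (0.0556), and its groups overlapped.

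Counts of both copies were summed to 32 proteins to see the change per protein, since reads shared by near-identical copies can move between A and B within the sum; RPS26 rests on upstream counts alone. In snf2 28 proteins fell and none rose, against 18.5% lower and 17% higher of the 6148 features in that fit. The median log2 fold change was -0.54, and RPS12, RPS25, RPS26 and RPS28 did not pass the test. Without the third cyc8 library 31 proteins fell in snf2 and none rose. In the double mutant against snf2 all 32 rose, against 24.3% higher and 23.5% lower of all features, from 0.49 for RPS4 to 1.00 for RPS22. In cyc8 against wild type RPS14, RPS26 and RPS28 rose, by 0.28, 0.35 and 0.59, and RPS7 fell by 0.28 on the log2 scale, a smaller share of the 32 than the 23% higher and 23.8% lower of all features. When the third cyc8 library was left out, 11 proteins rose and none fell, with no share of all features given for that fit. At upper-quartile scaling 8 proteins, and with no scaling factor 17 proteins, were called in that comparison.

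The A to B ratio within each library shows where copies of a pair parted. It was tested for the cyc8 label within strain in 23 pairs, RPS26 being unmeasured, and 8 passed an unadjusted exact p of 0.05, against 44.8% of the 58 small and large subunit pairs together. In 5 of the 8 the balance shifted to A and in 3 to B. For the snf2 label 5 of 23 passed, against 27.6% of the 58 pairs, 3 toward A and 2 toward B. The shares are below those of all ribosomal protein pairs, and the p-values are not adjusted for the 46 tests.

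With the cyc8 label the shift was toward B in RPS9, RPS6 and RPS0. The log2 ratio of RPS6 was -0.37, -0.16 and -0.29 in wild type, -0.95, -0.89 and -0.92 in cyc8, -0.51 and -0.46 in snf2 and -0.76, -0.63, -0.55 and -0.58 in the double mutant. Its change was -0.65 in BY4741 and -0.15 in FY2083 (mean -0.40, exact p = 0.006667), and the libraries with and without the label did not overlap within either strain. RPS0, the pair for a protein on the back of the subunit, changed by -0.16 and -0.26 (mean -0.21, exact p = 0.003333). Without the third cyc8 library the mean changes were -0.81 for RPS9, -0.40 for RPS6 and -0.22 for RPS0 (exact p = 0.006667 for each, the smallest that 150 arrangements allow).

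Among the shifts toward A were those of RPS30, RPS19, RPS25 and RPS10. The log2 ratio of RPS30 was 0.70, 0.76 and 0.78 in wild type, 1.19, 0.95 and 1.58 in cyc8, 0.97 and 1.00 in snf2 and 1.21, 1.22, 1.03 and 1.29 in the double mutant. Its change was 0.49 in BY4741 and 0.20 in FY2083 (mean 0.35, exact p = 0.003333), with no overlap in either. The mean changes of RPS19, RPS25 and RPS10 were 0.23, 0.18 and 0.16 (exact p = 0.01, 0.01333 and 0.01). Leaving out the third cyc8 library gave means of 0.26, 0.21, 0.23 and 0.18 for RPS30, RPS19, RPS25 and RPS10, with an exact p of 0.01333 for RPS19 and 0.006667 for the other 3.

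With the snf2 label, RPS14 moved most, as given above, and the other shifts past the test were smaller. RPS24 had log2 ratios of 0.58, 0.64 and 0.65 in wild type, 0.22, 0.49 and 0.13 in cyc8, 0.65 and 0.71 in snf2 and 0.51, 0.72, 0.79 and 0.78 in the double mutant. It rose by 0.06 without the cyc8 label and by 0.42 with it (mean 0.24, exact p = 0.005714). RPS10 rose by 0.06 and 0.19 (mean 0.13, exact p = 0.002857) and RPS0 by 0.17 and 0.06 (mean 0.11, exact p = 0.01714), the latter with overlapping libraries where the cyc8 label was present. Without the third cyc8 library the means were -0.89 for RPS14, 0.20 for RPS24, 0.10 for RPS10 and 0.12 for RPS0, with an exact p of 0.02 for RPS0 and 0.006667 for the others. RPS9 and the upstream row of RPS22 had larger mean shifts, 0.45 and -0.43, that did not pass the test (exact p = 0.0686 and 0.12). The RPS22 ratio sets RPS22A against the upstream counts of the RPS22B row, and was 6.24, 6.16 and 6.32 in wild type, 5.66, 5.46 and 5.18 in cyc8, 5.25 and 5.22 in snf2 and 5.75, 5.46, 5.64 and 5.47 in the double mutant, so all mutant libraries lay below wild type.

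**Figure D5:**
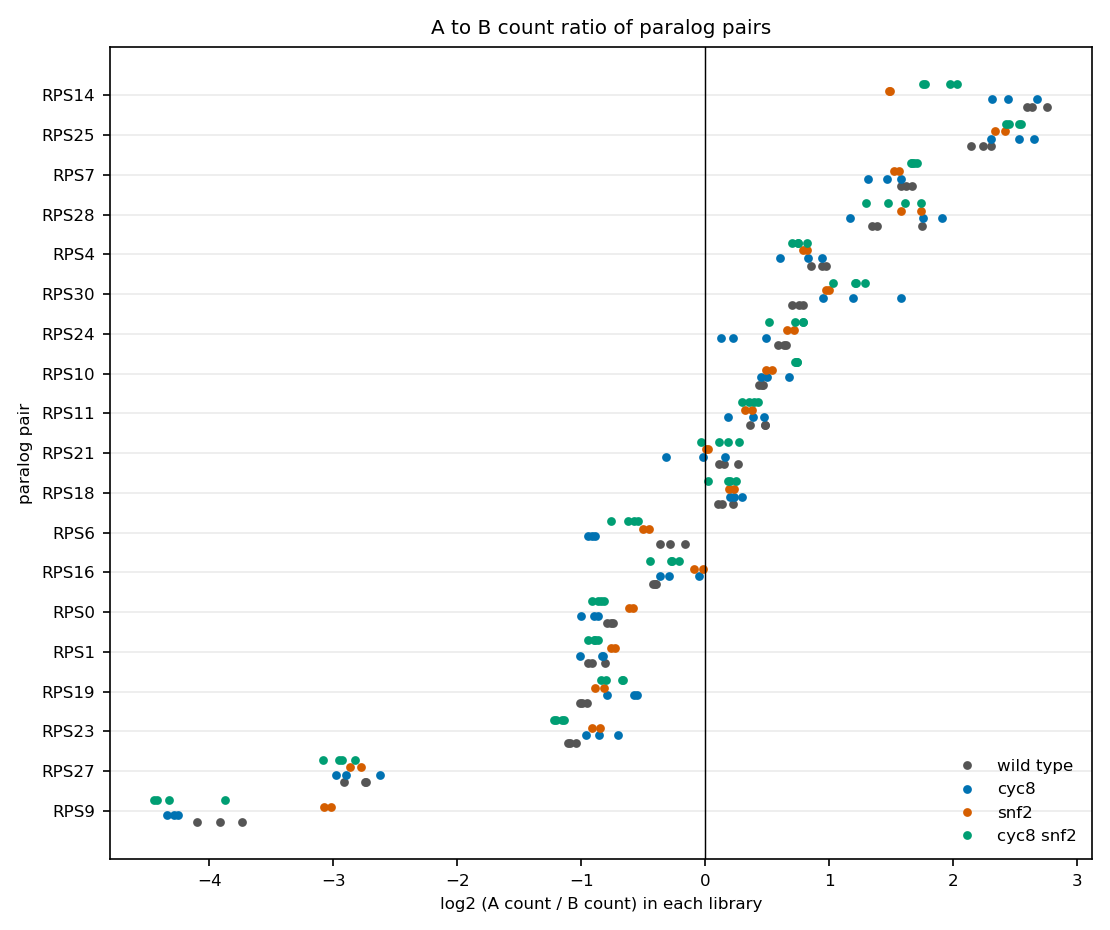
Log2 ratio of the A count to the B count in each of 12 libraries for the readable small subunit pairs described here, ordered by their wild-type mean; each point is 1 library, coloured by genotype. The snf2 points stand apart in RPS14, at 1.48 and 1.49, and in RPS9, at -3.07 and -3.02, while most pairs keep their order.

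Members with and without an intron, and with and without a Rap1-type word, had medians near each other. In snf2 against wild type the median log2 fold change was -0.48 in the 35 readable members with a coding intron and -0.53 in the 16 without, and -0.53 in the 25 with a Rap1-type word and -0.47 in the 26 without. In the double mutant against snf2 the same medians were 0.68 and 0.71, and 0.70 and 0.68. These are descriptions with no test.

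Of the other genes of the pathway, the 81 large subunit genes had 66 members lower (81.5%, against 18.7% of all genes) and none higher (against 17.3%) in snf2 against wild type. In the double mutant against snf2 they had 72 higher (88.9%, against 24.3%) and 1 lower (against 23.8%). Of 13 regulators of ribosomal protein genes 5 fell in snf2 (RAP1, HMO1, SFP1, DOT6 and MRS6), 38.5% against 18.7% of all genes, and 1 rose, IFH1, against 17.3% of all genes. In cyc8 5 regulators fell (ABF1, HMO1, RAP1, SFP1 and STB3), 38.5% against 23.9%, and 2 rose (CRF1 and YAK1), 15.4% against 22.9%. Without the third cyc8 library RAP1, SFP1 and YAK1 were not called (edgeR adjusted p = 0.126, 0.145 and 0.0731). Without the third wild-type library RAP1 and YAK1 were not called (edgeR adjusted p = 0.0525 and 0.1), while IFH1 and TOD6 were called higher in cyc8. HMO1, an HMG-box protein bound at many of these promoters, fell by 0.55 on the log2 scale in snf2 (edgeR adjusted p = 0.000616), rose by 0.50 in the double mutant against snf2 (edgeR adjusted p = 0.000621) and fell by 0.47 in cyc8 (edgeR adjusted p = 0.00056). CRF1, a corepressor of these genes, rose by 2.52 in cyc8 (edgeR adjusted p = 2.03e-07).

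IFH1, the coactivator, had 25.4, 24.5 and 45.1 CPM in wild type and 53.5 and 54.1 in snf2, a log2 fold change of 0.76 (edgeR adjusted p = 0.0144). In IFH1 the third wild-type library lay nearer to snf2 than to the other wild-type libraries, and without that library the value was 1.11 (edgeR adjusted p = 2.56e-06). Of 12 small subunit assembly factors 2 rose and none fell in snf2, 16.7% against 17.3% of all genes, a share near the background. They were HRR25, at 0.41, and YAR1, at 0.55 (edgeR adjusted p = 0.00534 and 0.00389). The third wild-type library was also the highest of the 3 in the assembly factors ENP1, PNO1 and TSR1 and in the regulator TOD6. Without that library 7 assembly factors rose and none fell, 2 regulators rose (IFH1 and TOD6) and 4 fell. RAP1 was then no longer called (edgeR adjusted p = 0.0568). No share of all genes called is given for that fit, so the 7 of 12 cannot be set against the 17.3%. The part of any of these genes in the members' changes was not tested.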

How the data were processed

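Total RNA of 12 samples went through ribosomal RNA depletion and paired-end Illumina sequencing (labels' protocols). The authors deposited raw read counts per gene. STAR, featureCounts and deepTools with the build R64 are named in the submitters' processing notes; the sources used here give no versions, strand setting or treatment of shared reads. By the values, rows wholly inside a model on the same strand had 0 counts (115 of 115) and 91 named rows inside an opposite-strand model had a median total of 2339, so reads were separated by strand. Groups and replicate numbers came from the labels. The 12 ribosomal RNA rows (2 counts in all) were left out.

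The main test was edgeR's (4.0.16, R 4.3.3) robust quasi-likelihood F test with TMM scaling and filterByExpr, all 12 libraries in 1 fit, 6171 genes tested and Benjamini-Hochberg adjustment over all of them, with calls at an adjusted p below 0.05. CPM are counts per 1000000 of the scaled library. A to B ratios were log2 of counts with 0.5 added, tested by exact permutation within strata. Levels between genes were compared per kb only. In simulated counts 200 well-expressed genes were changed per comparison, and no other gene differed between groups. In snf2 against wt 48% of log2 changes of 0.5 and 96% of changes of 1 were recovered among 6103 genes. In the interaction 19% and 93% were recovered among 6106 genes. Many more genes differ in the data, which alters the adjusted p-values, so these shares are not the sensitivity of the tests above. Alternatives were RLE, upper-quartile and no scaling, no filter, DESeq2 (1.42.0), limma-voom (3.58.1), the compared libraries only, a replicate block, a 2-fold limit, 5 counts added, no strata, and each library left out. The no-scaling fit, the count over readable rows, and the values of single members, pairs, summed proteins and listed genes without the third cyc8 or wild-type library were chosen after seeing the data.

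Any member could be named. Values were given in most detail for the 4 called members that rose most and the 4 that fell most in each comparison, the 8 single-copy genes, the 5 pairs with the largest change of balance for each label and the 3 readable pairs with the largest and the 3 with the smallest imbalance in wild type; other genes came from written lists. The members and lists were chosen with earlier results of these data known. Figures used matplotlib. Some members enter the fits and counts but are not reported by name here.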

Additional observations from a re-analysis of the deposited data

Results flagged for a closer look

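For 47 of the 55 members the change with the cyc8 label differed between the strain pairs by the interaction test in edgeR. Among the largest log2 differences were 1.04 for RPS6A, 0.96 for RPS31 and 0.95 for RPS3. The background genotype, the snf2 label, the marker of the cyc8 allele (KAN or URA3) and the 2 snf2 libraries enter this difference together. They cannot be told apart.

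Of the 20 pairs with both copies readable, 4 had every library move one way in 1 stratum and the opposite way in the other; these differences between strata were not tested. With the cyc8 label the log2 A to B ratio of RPS7 changed by -0.17 in BY4741 and 0.14 in FY2083, that of RPS16 by 0.17 and -0.25, and that of RPS23 by 0.24 and -0.30. With the snf2 label the ratio of RPS6 changed by -0.21 without the cyc8 label and 0.29 with it, that of RPS7 by -0.08 and 0.23, and that of RPS23 by 0.20 and -0.34. The RPS22 ratio, which rests on the upstream RPS22B row, changed by -0.81 in BY4741 and 0.34 in FY2083 with the cyc8 label. Without the third cyc8 library the BY4741 changes were -0.10 for RPS7, 0.08 for RPS16, 0.17 for RPS23 and -0.68 for RPS22. The changes with the snf2 label, where the cyc8 label was present, were then 0.29 for RPS6, 0.16 for RPS7 and -0.27 for RPS23.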

How the results depend on the processing

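The 29 results of single members chosen by the naming rule kept their direction in all 576 values under the alternatives, and 551 kept their side of the threshold; the 25 that lost the call belong to 7 results, those of RPS14B in 3 comparisons and of RPS7A, RPS19B, RPS24A and RPS30B. With a 2-fold limit 0 members were called in cyc8 against wild type, snf2 against wild type, the double mutant against wild type and the double mutant against cyc8, 2 in the double mutant against snf2 and 1 in the interaction. With no scaling factor the count was 28 in cyc8 against wild type and 29 in the double mutant against cyc8, and on summed copies 17 and 20 proteins. The higher share of all called genes then went from 48.9% to 27.2% in cyc8 against wild type, from 48.1% to 73.9% in snf2 against wild type, from 49.8% to 34.6% in the double mutant against wild type, from 50.6% to 20.4% against snf2, from 45.3% to 61.9% against cyc8 and from 52.1% to 36.2% in the interaction. At upper-quartile scaling that share was 33.9% in cyc8, 39.7% in the double mutant against wild type, 35.9% against snf2 and 58.3% against cyc8. At upper-quartile scaling 12 members were called in the double mutant against wild type and 8 proteins in cyc8 against wild type. With the compared libraries only, 8 were called in the double mutant against cyc8. Leaving out 1 library gave 7 to 24 members in cyc8 against wild type, 26 to 48 in snf2 against wild type, 12 to 31 in the double mutant against wild type, 51 to 53 against snf2, 5 to 19 against cyc8 and 30 to 47 in the interaction; some extremes came without the second wild-type, the third cyc8 or a snf2 library. On summed copies, leaving out the third cyc8 library gave 11 proteins in cyc8 against wild type, 18 in the double mutant against wild type and 2 against cyc8, where 4, 10 and 9 were called. For A to B ratios leaving out 1 library gave 7 to 9 pairs for the cyc8 label and 5 to 8 for the snf2 label, and permuting without strata gave 3 for the latter. Other causes of these shifts were not tested.

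Of 15 pairs of same-numbered libraries 1 had a correlation of deviations over 0.1 (range -0.135 to 0.21). Deviations were taken from the means of groups of 2 to 4 libraries, which constrains these correlations. They therefore cannot decide whether the numbers pair the samples. Some libraries of unlike number had larger values. The third wild-type library had 0.393 with the fourth double mutant library and -0.364 with the first. With a replicate block 15, 46, 26, 53, 14 and 45 members were called in the 6 comparisons, in the order cyc8, snf2 and double mutant against wild type, double mutant against snf2 and cyc8, and interaction, against 13, 47, 19, 53, 15 and 47 without it, and RPS14B in snf2 had an adjusted p of 0.0509. The 2 snf2 libraries, and 4 rows that miss the coding sequence, limit what can be said.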
